A study of Mus musculus with 17 samples.

Results

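The interaction of tumor and IL12-GEMy is the change that IL12-GEMy brought to tumor-bearing lungs minus the change it brought to tumor-free lungs. It was computed gene by gene from 16 of the 17 libraries of the series, 4 lungs in each of 4 groups. The 17th library, of the injected cells, entered no fit. IL12-GEMy are genetically engineered mouse myeloid cells that secrete interleukin-12 (IL-12). All lungs came from C57BL/6 mice. The group naive_untreated had neither tumor nor cells, and naive_GEMy had no tumor and received 8000000 IL12-GEMy intravenously. The group tumor_untreated carried M3-9-M ffluc-mCherry, a mouse rhabdomyosarcoma line, from 500000 cells placed in the gastrocnemius muscle, and received no cells. The group tumor_GEMy carried the same tumor and received 8000000 IL12-GEMy on day 12. Lungs were taken 3 days after the cells, which in tumor-bearing mice was day 15 after inoculation. The labels used here give no age or sex, and do not say whether the 4 lungs of a group came from separate mice, so the tests rest on the spread among these libraries, which may be technical. None of these groups received myeloid cells without IL-12, so the cells and the cytokine cannot be told apart.

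IL-12 acts on natural killer (NK) cells and T cells and makes them release interferon-gamma. Interferon-gamma switches on chemokine, antigen presentation and cell-defence genes in most cell types of the lung. Type I interferons use overlapping factors and raise many of the same genes. A tumor elsewhere in the body can itself change the lung, through interferons, neutrophils, monocytes and suppressive myeloid cells, before any tumor cell settles there. The interaction asks whether the lung answered IL12-GEMy differently when the tumor had already acted on it.

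Values were read abundance per gene length and library size (FPKM), with the length taken over the whole gene including introns, and each lung library held between 27566845 and 36815054 assigned reads, as recovered from the values. Of 18262 genes in the table, 10284 had at least 0.5 FPKM in at least 4 of the 16 libraries and were tested on log2(FPKM + 0.5). Lung genes were present throughout, with the surfactant gene Sftpc at 2865 to 5087 FPKM and the club cell gene Scgb1a1 at 4763 to 7513 FPKM. Hemoglobin took 0.0735 to 1.15% of reads in naive and 0.225 to 4.15% in tumor-bearing lungs. Tumor_untreated replicate 1 had the lowest median level of the saturated genes in its group, and counts with and without it are given. Labels of tumor-bearing samples carry a number that is 1 in all untreated and 2 in all treated lungs, and what it stands for cannot be told apart from the cells.

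The tumor and IL12-GEMy together mostly gave less than their separate log2 changes would add up to. The interaction passed an adjusted p of 0.05 (limma, Benjamini-Hochberg over all genes tested) in 644 of 10284 genes (6.26%). It was below 0 in 537 (5.22%) and above 0 in 107 (1.04%). Quantile normalization gave 406 below and 223 above. Without tumor_untreated replicate 1 there were 918 below and 338 above. Leaving out another single library gave 331 to 506 below and 47 to 108 above. The counts below 0 moved by over 1.5 times without naive_untreated replicate 1 (334) or 2 (355), naive_GEMy replicate 4 (336) or tumor_untreated replicate 3 (331). Those above 0 did so without naive_untreated replicates 1 (50), 2 (52) and 4 (67), naive_GEMy replicates 1 (63) and 4 (47), tumor_untreated replicates 3 (54) and 4 (68), and tumor_GEMy replicates 2 (62) and 3 (69). The median interaction over all genes was -0.0063 on the log2 scale.

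Each called gene was placed by its change with IL12-GEMy in naive lungs (730 genes called, 7.1%), with IL12-GEMy in tumor-bearing lungs (692, 6.73%) and with the tumor alone (4530, 44%). Saturated genes rose with IL12-GEMy in naive lungs and with the tumor alone, and the rise with IL12-GEMy was smaller or not called in the presence of the tumor. They numbered 223 (2.17%). Mirror-image genes, which fell with IL12-GEMy in naive lungs and with the tumor alone and had an interaction above 0, without a called rise with IL12-GEMy in tumor-bearing lungs, numbered 46 (0.447%). Tumor-dependent genes changed with IL12-GEMy in tumor-bearing lungs and not in the same direction in naive lungs, and 224 were lower (2.18%) and 38 higher (0.37%). In 1 gene the rise with IL12-GEMy was larger with the tumor (0.00972%), 4 genes rose more in naive lungs and were not changed by the tumor alone beyond the threshold (0.0389%), and 108 fell in none of these classes (1.05%). These calls define the classes, so the class medians below are descriptions.

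**Figure D1:**
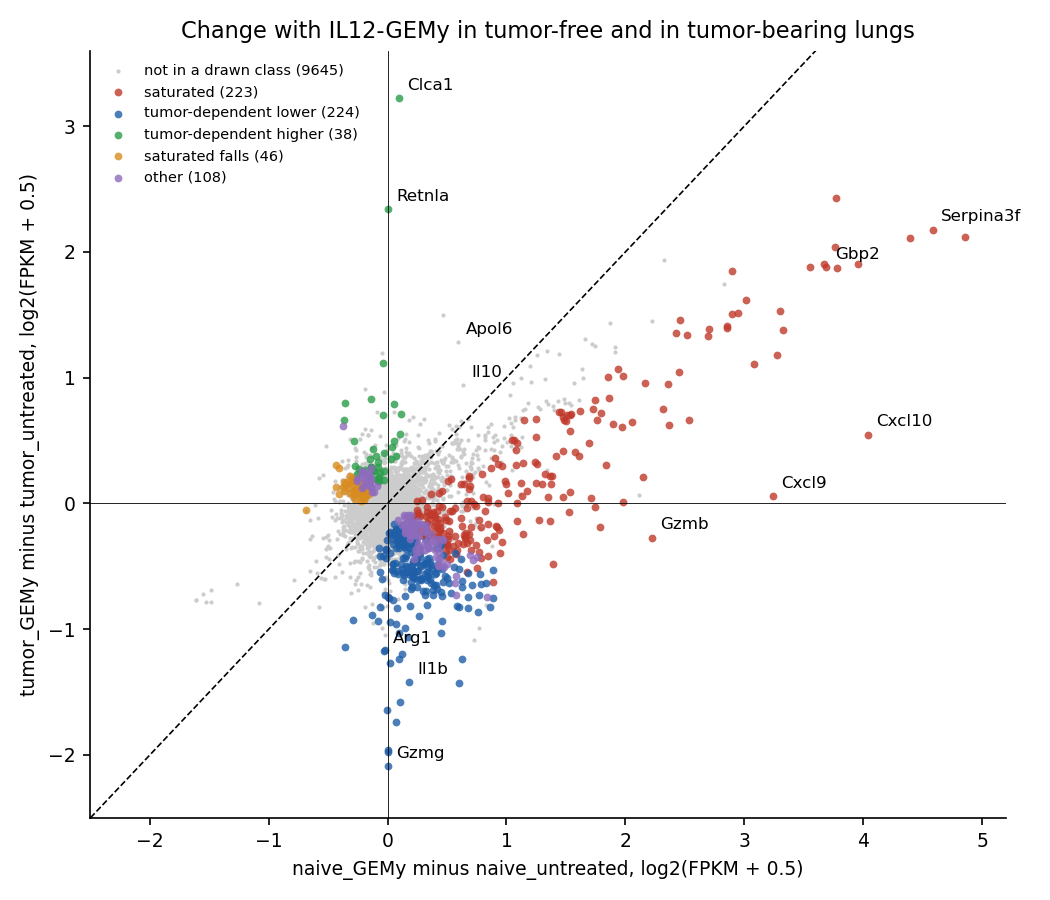
Each point is 1 of 10284 genes, with the log2 change with IL12-GEMy in naive lungs on the x axis and in tumor-bearing lungs on the y axis, colored by class. The dashed line marks equal changes. Most colored genes lie under it, and Clca1, Retnla and Apol6 lie above it.

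The chemokine genes Cxcl10 and Cxcl9 had the largest interactions below 0. Their products draw activated T cells and NK cells into tissue, and both genes are textbook interferon-gamma targets. Cxcl10 (chr5:92346639-92348889) lay at 0.588, 0.575, 0.687 and 0.553 FPKM in the 4 naive_untreated lungs and at 22.8, 14, 16.5 and 18.1 in naive_GEMy. With the tumor it lay at 6.98, 16.6, 29.5 and 41.1 untreated and at 22.3, 40.8, 36.3 and 20.5 with IL12-GEMy. The naive groups did not overlap, whereas every tumor_GEMy value fell between the lowest and the highest tumor_untreated value. The change with IL12-GEMy was 4.04 on the log2 scale in naive lungs (SE 0.39) and 0.55 in tumor-bearing lungs (SE 0.39, adjusted p = 0.488), an interaction of -3.49 (SE 0.55, adjusted p = 0.00288, limma). Cxcl9 (chr5:92321331-92328079) had the same shape, from 0.112 ± 0.014 to 5.35 ± 0.929 FPKM in naive lungs (SD, n = 4) and from 13 ± 9.38 to 11 ± 2.56 in tumor-bearing lungs, with an interaction of -3.18 (SE 0.55, adjusted p = 0.00438).

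The GTPase genes of cell-autonomous defence rose again in tumor-bearing lungs, but by less. Igtp (chr11:58199556-58207592) encodes an immunity-related GTPase that acts on the vacuoles of intracellular microbes. It lay at 6.16, 7.09, 5.87 and 5.81 FPKM in naive_untreated, 113, 94.7, 97.5 and 112 in naive_GEMy, 18.7, 28.9, 35.6 and 47.5 in tumor_untreated and 122, 120.1, 126 and 102 in tumor_GEMy. The groups with IL12-GEMy lay above both groups without it, and their own ranges overlapped. The log2 change was 3.96 in naive (SE 0.19) and 1.91 in tumor-bearing lungs (SE 0.19), and the interaction was -2.05 (SE 0.27, adjusted p = 0.00122). The serpin gene Serpina3f (chr12:104214544-104221129) went from 0.485 ± 0.107 to 23.9 ± 7.87 FPKM in naive lungs and from 6.48 ± 2.56 to 29.9 ± 5.71 with the tumor (interaction -2.41, SE 0.34, adjusted p = 0.00186). Tgtp1 (-2.29), Gbp4 (-2.09) and Gbp2 (-1.81), further interferon-induced GTPase genes, gave interactions of like size. Reads of Tgtp1 and Tgtp2, of neighbouring Gbp genes and of Serpina3f and Serpina3g can be split between close copies, and how the authors counted them is not given in the sources used here.

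These 2 shapes ran through the class. In 59 of the 223 saturated genes IL12-GEMy still raised the level in tumor-bearing lungs, with a median log2 change of 0.96 against 1.94 in naive lungs. In the other 164 no change was called in tumor-bearing lungs, where the median was -0.11 against 0.66 in naive lungs. The estimate in tumor-bearing lungs was below 0 in 109 of them and above 0 in 55. For 158 of these 164 the upper 95% limit of the change was under 1 on the log2 scale. With both tumor and cells, 37 of the 223 stood higher than with cells alone (4.03% of all genes tested did) and 186 were not called. Of all genes tested 13.2% were called there in either direction, so most of all genes were not called either. The median log2 level of the class above naive_untreated was 0.72 to 1.03 in naive_GEMy libraries and 0.98 to 1.17 in tumor_GEMy libraries. In the tumor_untreated libraries it was 0.64 in replicate 1 and 1.04 to 1.28 in the others. The class held 121 to 201 genes when another library was left out and 344 without tumor_untreated replicate 1. It moved by over 1.5 times also without naive_untreated replicate 1 (127) or 2 (145) and naive_GEMy replicate 1 (139) or 4 (121).

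**Figure D2:**
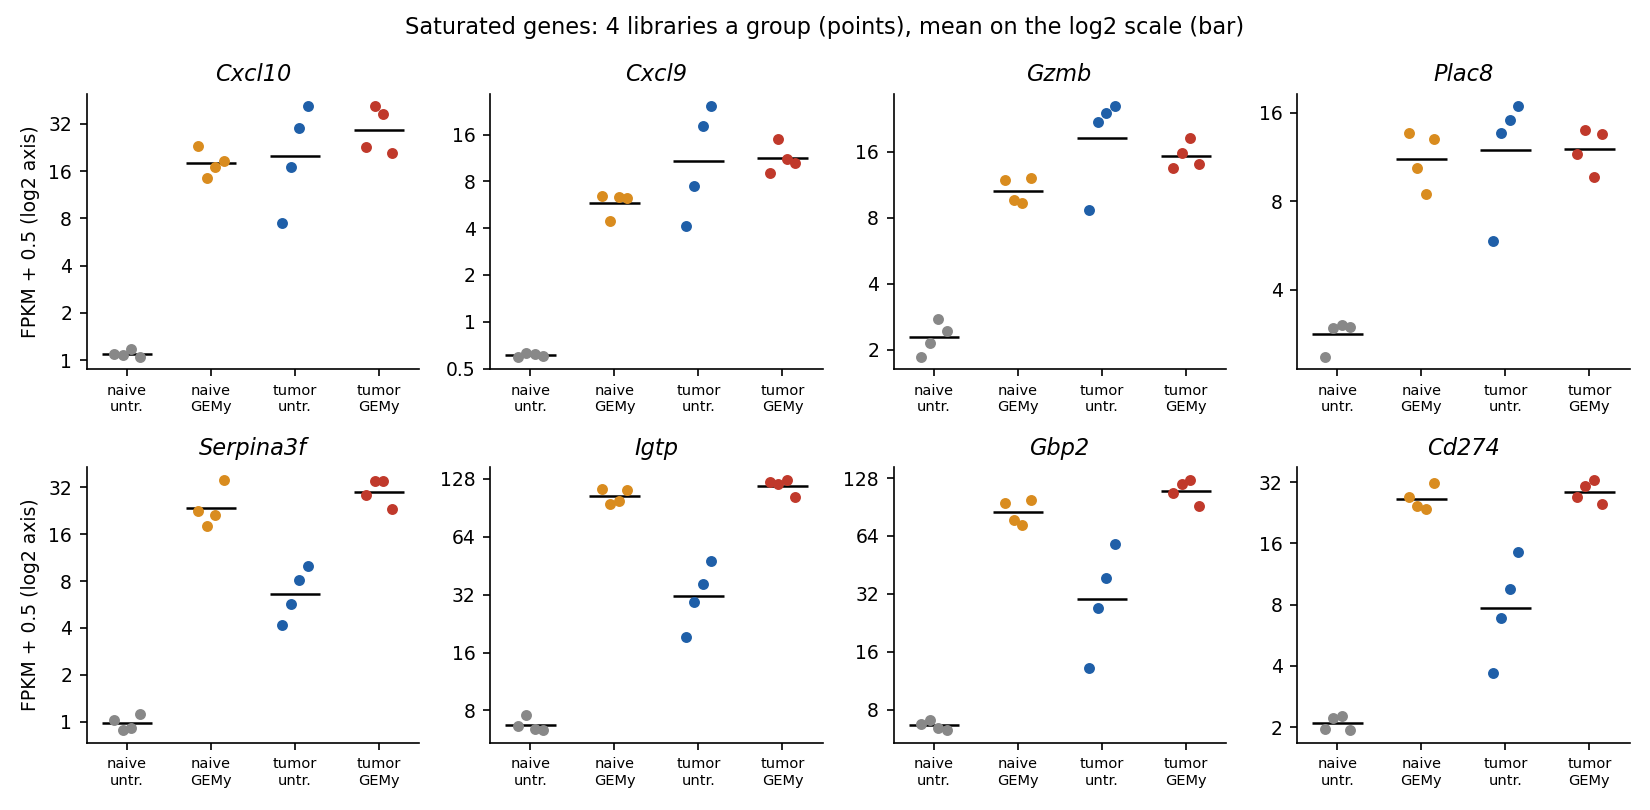
FPKM + 0.5 on a log2 axis in each of the 4 libraries per group (points), with the mean on that scale (bar), for 8 saturated genes. In the top row tumor_GEMy lies within or near the range of tumor_untreated, and in the bottom row it lies above it, near naive_GEMy.

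How far these genes fell short depends on the scale. On linear FPKM, the level expected from adding the 2 separate changes was tumor_untreated plus naive_GEMy minus naive_untreated. The observed tumor_GEMy mean was below that sum in 218 of the 223 saturated genes, at a median of 0.729 of it, and within 10% of it in 14. With linear values divided by the gene mean and tested in the same way, 25 of the 223 kept a called interaction and the class held 13 genes. Serpina3f reached 0.9995 of the sum, Gbp2 0.974, Tgtp1 0.97, Igtp 0.901 and Cd274, which encodes the checkpoint ligand PD-L1, 0.868. A further GTPase gene, Gbp4, reached 0.71. Among chemokine genes Cxcl10 reached 0.735, Cxcl9 0.600 and Ccl17 0.847, and among granzyme genes Gzmb 0.534 and Gzma 0.819. The monocyte genes Plac8, Ms4a6c and Ly6c2 reached 0.558, 0.468 and 0.800. On linear FPKM limma called no interaction for these chemokine, granzyme and monocyte genes (adjusted p = 0.0638 for Ms4a6c, the lowest, to 0.632 for Gzma), nor for Gbp2, Gbp4, Tgtp1, Igtp or Serpina3f (0.16 for Gbp4 to 0.999 for Serpina3f).

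**Figure D3:**
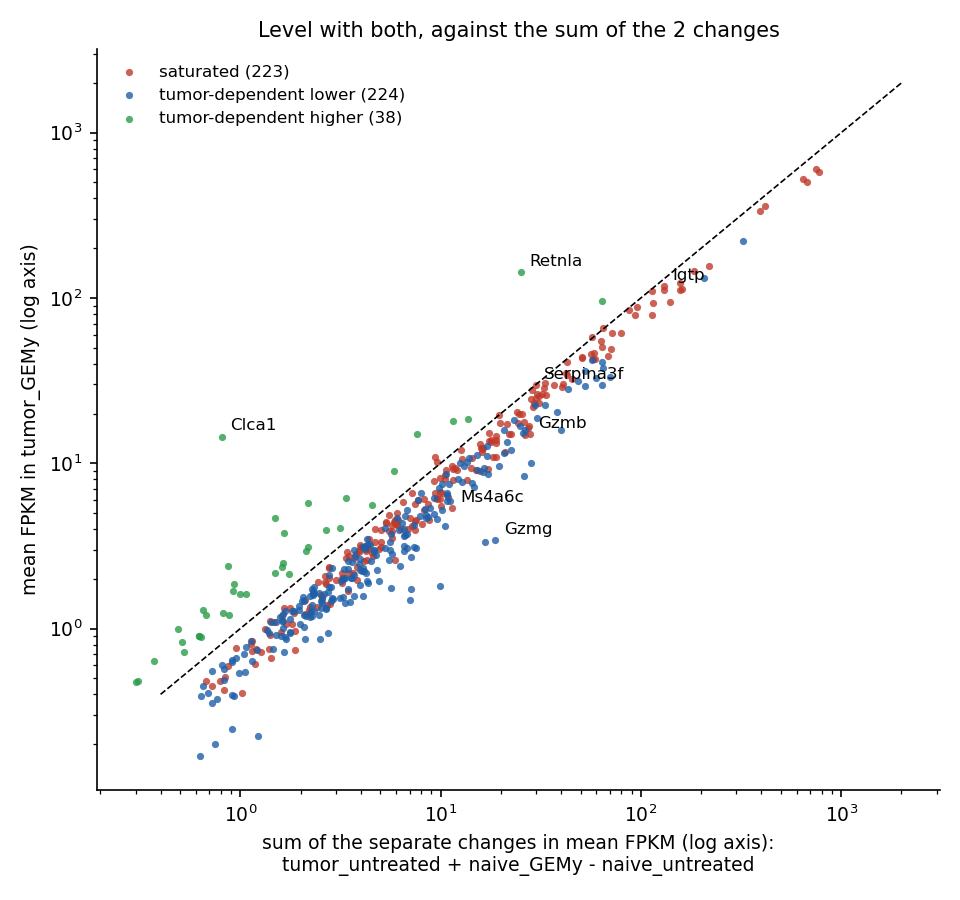
Mean FPKM in tumor_GEMy (y, log axis) against the sum of the separate changes in mean FPKM (x, log axis) for saturated and tumor-dependent genes, with equality as a dashed line. Serpina3f lies on the line, Gzmb, Ms4a6c and Gzmg under it, and Retnla and Clca1 above it.

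Promoters are shown for 3 saturated genes, a chemokine gene and a pair of GTPase genes, and for the tumor-dependent Retnla described below. They were searched for 2 interferon elements, TTCNNNGAA, the gamma-activated site, which reads the same on both strands, and the core of the interferon-stimulated response element, searched as GAAA, any 2 bases, GAAA, on both strands. Sequences are from RefSeq (GRCm38.p6, the assembly that mm10 names), from 250 bases before to 50 after the gene start, 5′ to 3′ along the gene, with matches in capitals.
Cxcl10 (chr5:92348840-92349139, minus strand): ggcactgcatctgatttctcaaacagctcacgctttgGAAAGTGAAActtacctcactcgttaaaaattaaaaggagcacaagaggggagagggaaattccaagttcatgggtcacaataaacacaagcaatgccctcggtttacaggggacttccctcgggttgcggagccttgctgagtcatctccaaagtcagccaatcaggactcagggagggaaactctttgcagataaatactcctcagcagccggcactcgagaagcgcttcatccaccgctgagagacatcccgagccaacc
Igtp (chr11:58199306-58199605, plus strand): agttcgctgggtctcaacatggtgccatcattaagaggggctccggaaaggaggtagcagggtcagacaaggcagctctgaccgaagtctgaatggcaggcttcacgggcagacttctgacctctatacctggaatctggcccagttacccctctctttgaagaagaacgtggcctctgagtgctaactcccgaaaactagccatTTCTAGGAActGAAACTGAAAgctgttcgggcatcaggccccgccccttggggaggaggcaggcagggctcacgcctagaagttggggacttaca
Tgtp1 (chr11:48992197-48992496, minus strand): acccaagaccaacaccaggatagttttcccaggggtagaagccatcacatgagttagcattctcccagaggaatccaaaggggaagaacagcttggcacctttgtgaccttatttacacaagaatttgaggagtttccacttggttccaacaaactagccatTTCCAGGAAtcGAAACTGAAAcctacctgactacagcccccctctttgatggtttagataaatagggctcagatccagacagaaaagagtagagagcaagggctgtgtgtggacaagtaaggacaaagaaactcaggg
Retnla (chr16:48842359-48842658, plus strand): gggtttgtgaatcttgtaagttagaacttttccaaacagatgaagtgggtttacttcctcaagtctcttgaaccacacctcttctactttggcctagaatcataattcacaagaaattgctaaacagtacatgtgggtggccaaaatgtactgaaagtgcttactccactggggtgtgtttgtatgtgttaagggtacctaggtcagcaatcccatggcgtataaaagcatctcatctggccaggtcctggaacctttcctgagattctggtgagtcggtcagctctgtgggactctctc
Igtp and Tgtp1 both carry TTCNNNGAA followed after 2 bases by the response element core, and TTCNNNGAA begins 45 and 88 bases before the gene start. Cxcl10 holds the core 213 bases before the start, and these letters are not in the Retnla window. Of the 8126 tested genes with a promoter in the table, 6.71% held TTCNNNGAA and 3.36% the core. The shares were 17.8% and 21.9% in the 169 saturated genes with a promoter, 8.79% and 7.69% in 182 tumor-dependent lower genes, 14.3% and 4.76% in 21 tumor-dependent higher genes, and 7.32% and 2.44% in 41 mirror-image genes. At least 1 of the 2 elements was in 33.1% of saturated and 9.57% of all promoters. A match to so short a motif is a description of these letters and not a bound site.

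Gene lists place these patterns in pathways. Of the 31 tested genes of the interferon-gamma response, 25 had an interaction below 0 (5.22% of all genes tested did), 24 of them saturated. Its median change was 2.95 in naive lungs, where 29 of 31 rose (5.6% of all), and 1.39 in tumor-bearing lungs, where 26 rose (3% of all). With the tumor alone 30 rose (16.9% of all), by a median of 1.82. The median interaction was -1.47, against -0.0063 over all genes, and voom, a limma fit on reads recovered from the FPKM steps, called 27. On linear FPKM limma called none of the 31 (6 at an unadjusted p under 0.05). Cd274 went from 1.59 ± 0.173 to 26.2 ± 3.6 and from 8.15 ± 4.56 to 28.4 ± 3.62 FPKM (interaction -1.77, SE 0.39, adjusted p = 0.014), and the means of the treated groups lay within 1 SD of each other. The call for Irf1 (-0.85, adjusted p = 0.0303), a transcription factor of the same response, was lost without any 1 of 8 libraries (adjusted p = 0.0553 to 0.071).

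For several interferon-gamma targets the interaction did not pass. Ido1, whose enzyme degrades tryptophan, rose from 0.0995 ± 0.00717 to 3.84 ± 0.91 FPKM in naive and from 1.53 ± 1.17 to 5.68 ± 2.16 in tumor-bearing lungs. Its interaction of -1.09 did not pass (95% interval -2.12 to -0.058, adjusted p = 0.222). That of Socs1, a feedback inhibitor of the pathway, was -0.77 (-1.6 to 0.073, adjusted p = 0.296), and that of Ciita, the master regulator of MHC class II, -0.49 (-0.84 to -0.13, adjusted p = 0.104). Ciita passed without tumor_untreated replicate 1 (adjusted p = 0.00739), and so did Ido1 (0.0227), which passed also on values scaled by library size alone (0.0463). Nos2, the gene of inducible nitric oxide synthase, did not reach the minimum in 4 libraries and was not tested, at 0.548 ± 0.213 FPKM in tumor_untreated and 0.254 ± 0.0578 in tumor_GEMy.

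No interaction was called for the cytokine gene Ifng itself. Ifng (chr10:118441046-118445894) was low throughout, at 0.0369, 0.0562, 0.029 and 0.0555 FPKM in naive_untreated, 0.901, 0.551, 0.768 and 0.801 in naive_GEMy, 0.224, 0.341, 0.666 and 1.18 in tumor_untreated and 1.46, 1.94, 2.3 and 1.34 in tumor_GEMy. All tumor_GEMy values exceeded all values of the other groups. IL12-GEMy raised it by 1.2 in naive and 1.09 in tumor-bearing lungs, and the interaction was -0.10 (95% interval -0.70 to 0.50, adjusted p = 0.883). With both, Ifng stood 0.84 above naive_GEMy (adjusted p = 0.0146). Most saturated genes were not called between those groups, and neither were most of all genes tested (13.2% were called). The receptor gene Il12rb1 rose in the same way, by 0.57 and 0.55 (interaction -0.024, -0.26 to 0.22, adjusted p = 0.935). Il12rb2, of the second IL-12 receptor chain, was not tested, at 0.0417 ± 0.00855 FPKM in naive_untreated and 0.131 ± 0.016 in tumor_GEMy. Values this low are pulled toward 0 by the added 0.5, and the estimate for Ifng was above 0 under 5 other settings. As a ratio of mean FPKM, the rise of Ifng and of Il12rb1 was smaller with the tumor. Ifng went from 0.0444 to 0.755 FPKM in naive and from 0.602 to 1.76 in tumor-bearing lungs. Il12rb1 went from 0.109 to 0.41 and from 0.32 to 0.699. The like log2 changes in the 2 settings thus depend on the added 0.5.

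Genes of the type I interferon response, many of them antiviral sensors and effectors, gave 15 saturated genes of 31 tested (2.17% of all genes were saturated). Medians over the list were 1.33 in naive and 0.48 in tumor-bearing lungs, with an interaction median of -0.65. Without tumor_untreated replicate 1 there were 24 below 0. Zbp1, a nucleic acid sensor, had the largest (-1.98, SE 0.32, adjusted p = 0.00319). The call for Rsad2, an antiviral enzyme gene (-1.42, adjusted p = 0.0491), was lost without any 1 of 13 libraries (adjusted p = 0.0544 to 0.107).

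Many antigen presentation genes were saturated too. Of MHC class I presentation genes, 14 of 22 were saturated (2.17% of all), with medians of 1.33 in naive and 0.54 in tumor-bearing lungs. Tap1, which pumps peptides to MHC class I, went from 8.24 ± 0.762 to 47.6 ± 5.99 and from 24.7 ± 6.68 to 50.4 ± 6.52 FPKM (interaction -1.41, SE 0.23, adjusted p = 0.00338). B2m, the invariant light chain, had an interaction of -0.91, H2-K1, a classical heavy chain, -0.65, and H2-Q7, a nonclassical one, -1.17. MHC class I heavy chain genes resemble each other, so their reads can be misplaced among them. Of MHC class II genes 3 of 13 passed below 0 (5.22% of all genes did), 7 without tumor_untreated replicate 1 and 5 with the replicate number as a block. H2-Ab1, a chain of the class II molecule itself, did not pass (-0.46, 95% interval -0.74 to -0.17, adjusted p = 0.056). It did without tumor_untreated replicate 1, naive_untreated replicate 4 or tumor_GEMy replicate 2 (adjusted p = 0.0321 to 0.0437). H2-DMb1, which helps load peptides, passed (-0.56, adjusted p = 0.0134), as did the lysosomal reductase gene Ifi30 (-0.69, adjusted p = 0.019).

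Cytotoxic genes split into 2 patterns. Gzmb (chr14:56258836-56262334), a protease of NK and cytotoxic T cell granules, lay at 1.36, 1.66, 2.25 and 1.94 FPKM in naive_untreated, 11.3, 9.1, 8.8 and 11.6 in naive_GEMy, 8.16, 21.3, 23.6 and 25.4 in tumor_untreated and 13, 15.3, 18.1 and 13.5 in tumor_GEMy. Naive groups did not overlap. In tumor-bearing lungs 3 of 4 untreated values were above all treated ones, and replicate 1 was below them. The change with IL12-GEMy was 2.22 in naive and -0.27 in tumor-bearing lungs (interaction -2.49, SE 0.37, adjusted p = 0.00211). The pore-forming perforin gene Prf1 (-1.56, adjusted p = 0.00936) was saturated too. Gzma, a further granzyme gene, passed (-1.41, adjusted p = 0.0334) but lost the call without any 1 of 11 libraries (adjusted p = 0.0531 to 0.0805). In the list of cytotoxic and NK cell genes 9 of 16 were saturated (2.17% of all), with a median interaction of -0.86. The count of interactions below 0, also 9 with all libraries, was 15 without tumor_untreated replicate 1. It was 4 without naive_untreated replicate 1, naive_GEMy replicate 1 or 4, or tumor_untreated replicate 2, 3 or 4, and 5 without naive_untreated replicate 2, naive_GEMy replicate 2, or tumor_GEMy replicate 1, 2 or 4.

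Granzymes C to G, encoded beside Gzmb on chromosome 14, were expressed with the tumor and fell with the cells. Gzmg (chr14:56156581-56159579) was listed at 0 in all 8 naive lungs. It lay at 7.39, 12.2, 18.3 and 37.4 FPKM in tumor_untreated and 4.95, 2.84, 3.32 and 2.63 in tumor_GEMy, without overlap. All 5 tested members of this list passed below 0 (5.22% of all genes did), and their median change with IL12-GEMy in tumor-bearing lungs was -1.96. Gzmg changed by -2.09 (SE 0.32, adjusted p = 0.00112). With the naive groups at or near 0 the interaction repeats that change (-2.09, adjusted p = 0.0136), and voom called none of the 5, nor any at an unadjusted p under 0.05. On linear FPKM limma called none (5 at an unadjusted p under 0.05). Gzmd (-1.98), Gzmf (-1.96) and Gzmc (-1.81) moved alike, and Gzme (-1.63) lost its call without any 1 of 4 libraries (adjusted p = 0.052 to 0.0546). They are close paralogs, and their reads can be split among them. Of the markers of T cells none of 11 tested passed (1 at an unadjusted p under 0.05, none by voom), with a median interaction of 0.039. As 6.26% of all genes passed, none of 11 is near that share. In bulk lung, fewer cells of a type and less RNA per cell cannot be told apart.

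**Figure D4:**
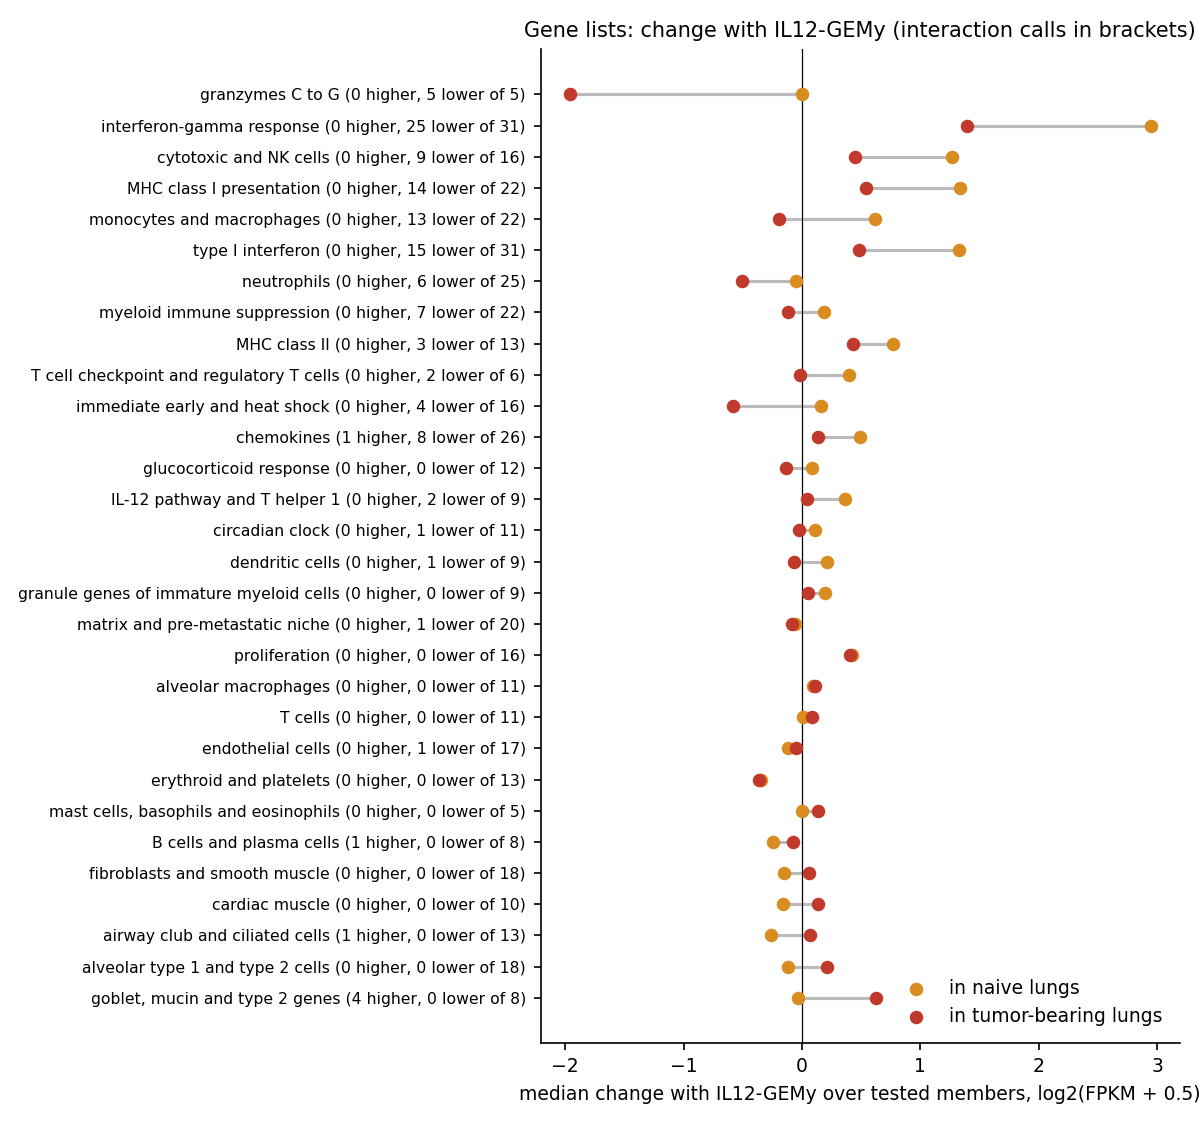
Median log2 change with IL12-GEMy over the tested members of each gene list in naive lungs (orange) and tumor-bearing lungs (red), with the counts of interaction calls in brackets. The interferon-gamma list moved from 2.95 to 1.39 and granzymes C to G from 0 to -1.96, and the proliferation list was at 0.42 and 0.40.

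Monocyte genes belonged to both classes. In the monocyte and macrophage list 13 of 22 passed below 0 (5.22% of all genes) and 10 were saturated (2.17% of all), with medians of 0.62 in naive and -0.19 in tumor-bearing lungs. Plac8 went from 2.33 ± 0.315 to 10.8 ± 2.41 FPKM in naive and from 12.4 ± 4.84 to 11.7 ± 1.98 in tumor-bearing lungs (interaction -1.97, SE 0.37, adjusted p = 0.00546). Interactions were -1.87 for Ms4a6c, -1.74 for Ly6c2, a surface marker of inflammatory monocytes, and -1.67 for the Fc receptor gene Fcgr4. The injected cells carry the same genes: the product library held 50.8 FPKM of Plac8, 35.6 of Ms4a6c and 105 of Ly6c2, above every lung. The summed FPKM of this list was 1537 to 1639 in naive_untreated, 1711 to 1815 in naive_GEMy, 1576 to 1753 in tumor_untreated and 1578 to 1661 in tumor_GEMy. What part of these values came from injected cells was not tested. On linear FPKM 2 of the 22 genes passed. Alveolar macrophage markers gave no call among 11 (2 at an unadjusted p under 0.05, none by voom), near the share of all genes (6.26% called).

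The chemokine genes Ccl3 and Ccl4 were saturated as well. Both encode secreted proteins that draw leukocytes into tissue. Ccl3 had an interaction of -1.78 (adjusted p = 0.00716) and Ccl4 of -1.98 (adjusted p = 0.00793), with 47.6 and 24.6 FPKM in the product. In the whole chemokine list 8 of 26 passed below 0 (5.22% of all genes) and 1, Cxcl17, above (1.04% of all). Ccl17 of dendritic cells (-0.77), the endothelial adhesion gene Sele (-0.98), the stress factor gene Atf3 (-1.15) and the IL-18 receptor gene Il18rap (-0.80) were further saturated genes.

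Tumor-dependent lower genes fell with IL12-GEMy in tumor-bearing lungs without a called fall in naive ones, and nearly all were called higher with the tumor alone. Of the 224, 220 rose with the tumor alone (16.9% of all genes tested did), by a median of 0.83 over the class. High tumor_untreated values both favour entry to the class and count as a rise with the tumor, so this count is partly built in. IL12-GEMy changed the class by a median of -0.50 in tumor-bearing and 0.18 in naive lungs. With both, 144 were not called against naive_GEMy, 72 stayed higher (4.03% of all genes) and 8 were lower (9.17% of all). Of all genes 13.2% were called in that comparison in either direction. In naive lungs 39 of the 224 rose with IL12-GEMy (5.6% of all), so that the cells moved them in opposite directions in the 2 settings. On linear FPKM all 224 lay below the sum of the separate changes and 125 kept a called interaction. The class held 427 genes without tumor_untreated replicate 1, 136 without tumor_untreated replicate 3 and 140 without tumor_GEMy replicate 2, and 153 to 228 without any other library.

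Inflammatory and suppressive myeloid genes were among them. Il1b (chr2:129364578-129371139), a cytokine gene of neutrophils and monocytes, lay at 1.96, 2.11, 3.17 and 3.37 FPKM in naive_untreated, 3.22, 2.87, 2.52 and 3.43 in naive_GEMy, 19.6, 27.1, 24.6 and 39.8 in tumor_untreated and 9.08, 10.1, 6.96 and 13.9 in tumor_GEMy. The naive groups overlapped, and the tumor-bearing groups did not. It changed by 0.18 in naive (adjusted p = 0.707) and -1.42 in tumor-bearing lungs (SE 0.22), with an interaction of -1.6 (SE 0.30, adjusted p = 0.00631). Arg1 (chr10:24915207-24927470), whose arginase depletes arginine, lay at 0.196, 0.195, 0.172 and 0.184 FPKM in naive_untreated and at 0.173, 0.173, 0.166 and 0.183 in naive_GEMy. With the tumor it lay at 0.549, 0.801, 1.55 and 2.04 untreated and 0.142, 0.25, 0.212 and 0.298 with the cells, where 3 of 4 treated values were above the naive_untreated range and 1 below it. Its interaction was -1.15 (SE 0.27, adjusted p = 0.019), with an adjusted p of 0.0549 by voom. Arg1 met the minimum of 0.5 FPKM only through the 4 tumor_untreated lungs. The group that admitted it to testing thus also sets its fall and its interaction. Of the list of myeloid immune suppression, 7 of 22 passed below 0 (5.22% of all genes did), with a median of -0.52. That count was 4 by voom. It was 3 without naive_untreated replicate 1 or 2, naive_GEMy replicate 1, 2 or 4, tumor_untreated replicate 2 or tumor_GEMy replicate 2, and 4 without naive_untreated replicate 3 or 4, tumor_untreated replicate 3 or 4, or tumor_GEMy replicate 3.

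Nr4a1 (chr15:101266846-101274794), an immediate early transcription factor gene that patrolling monocytes need, lay at 25.1, 30.1, 25 and 24.5 FPKM in tumor_untreated and 8.13, 9.2, 7.05 and 9.33 in tumor_GEMy. Naive lungs held 8.05, 5.85, 12.6 and 18.3 without and 12.4, 11.3, 10.1 and 10.6 with the cells, a wide and then a narrow range around a similar mean. The interaction was -1.69 (SE 0.33, adjusted p = 0.0069). The calcium-binding gene S100a4 went up in naive lungs, from 13.6 ± 1.58 to 25.5 ± 2.4 FPKM, and down in tumor-bearing lungs, from 52 ± 15.5 to 29.7 ± 4.64 (interaction -1.63, SE 0.27, adjusted p = 0.00338). The signalling adaptor genes Tyrobp (0.78 and -0.56) and Fcer1g (0.89 and -0.53) and the inhibitory receptor genes Pirb (0.71 and -0.65) and Cd300a (0.76 and -0.86) also moved in opposite directions in naive and tumor-bearing lungs. Chosen after their values were seen, 7 of 8 tested genes with names in Cd300, a family of paired myeloid receptors, and 4 of 6 in Clec4, lectin receptors of myeloid cells, were tumor-dependent lower (2.18% of all genes tested were). The product held 164 FPKM of S100a4, 66.9 of Tyrobp, 50.7 of Fcer1g, 48 of Pirb and 14.9 of Cd300a, above every lung library, and their part in these values was not tested.

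Neutrophil genes were uneven. Of 25 tested, 22 rose with the tumor alone (16.9% of all genes), 7 fell with IL12-GEMy in tumor-bearing lungs (3.72% of all) and 6 had an interaction below 0 (5.22% of all). The last count was 2 by voom, 12 without tumor_GEMy replicate 1, and 3 without naive_untreated replicate 1 or 2, naive_GEMy replicate 1, 2 or 4, tumor_untreated replicate 2 or 4, or tumor_GEMy replicate 2 or 3. Csf3r, the receptor for the growth factor G-CSF, went from 19.4 ± 1.75 to 9.6 ± 3.04 FPKM with the tumor and from 2.34 ± 0.314 to 2.54 ± 0.378 without it (interaction -1.13, adjusted p = 0.0124). Clec4e, a lectin that senses damaged cells and mycobacteria, followed (-1.29, adjusted p = 0.00685, 0.0586 by voom). S100a8, the classical neutrophil marker, did not pass (-0.79, 95% interval -1.74 to 0.16, adjusted p = 0.348), nor did S100a9 (-0.67, -1.55 to 0.20, adjusted p = 0.393). In tumor_GEMy S100a8 lay at 1046, 419, 362 and 385 FPKM, with replicate 1 in the range of tumor_untreated and the others below it. Trem1, an amplifier of myeloid inflammation (-1.03, adjusted p = 0.0475), lost its call without any 1 of 13 libraries (adjusted p = 0.0624 to 0.0955). The secreted protein gene Wfdc17 (-2.03, adjusted p = 0.00872) and the myeloid receptor gene Treml4 (-1.86, adjusted p = 0.00716) were larger members of the class. Ebi3, which encodes a subunit of IL-27 and IL-35 (-0.85), and the clock gene Ciart (-0.70) were smaller ones.

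Tumor-dependent higher genes were few and led by secretory genes of the airway and type 2 responses. Retnla (chr16:48842609-48844461) encodes a secreted protein that macrophages and lung epithelium make under interleukin-4 and interleukin-13. It lay at 24.3, 20.8, 22.7 and 17.1 FPKM in naive_untreated, 20.6, 25.5, 22 and 17.3 in naive_GEMy, 31.7, 20.4, 19.5 and 29 in tumor_untreated and 71.1, 83, 241 and 180.2 in tumor_GEMy. All 4 tumor_GEMy lungs were above the other 12, which overlapped each other. The change with IL12-GEMy was 0.0060 in naive (95% interval -0.64 to 0.66) and 2.34 in tumor-bearing lungs (SE 0.31), and the interaction was 2.33 (SE 0.43, adjusted p = 0.00544).

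Clca1 (chr3:145004537-145032776), a protein secreted by goblet cells, was the most uneven. It lay at 0.416, 0.268, 0.572 and 0.329 FPKM in naive_untreated, 0.355, 0.363, 1.16 and 0.168 in naive_GEMy, 1.52, 0.263, 0.262 and 0.747 in tumor_untreated and 2.7, 5.03, 30.6 and 19.7 in tumor_GEMy. All tumor_GEMy values were above all others, with replicates 3 and 4 far above 1 and 2. The interaction of 3.13 (SE 0.81, adjusted p = 0.0345) was lost without any 1 of 11 libraries (adjusted p = 0.0545 to 0.0794), with no minimum, on values scaled by library size alone and by voom. The same 2 lungs were highest for the mucin gene Muc5b, at 3.4, 3.81, 6.53 and 4.94 FPKM in tumor_GEMy against 3.06, 2.3, 2.44 and 1.88 in tumor_untreated. Muc5b was also 4.47, 3.75, 3.27 and 3.76 in naive_untreated and 2.51, 3.08, 3.59 and 2.35 in naive_GEMy, so the treated tumor-bearing lungs overlapped with untreated naive ones (interaction 1.16, SE 0.24, adjusted p = 0.00916). Tff2, a trefoil peptide gene of mucus-secreting cells (1.16, adjusted p = 0.0263), lost its call without any 1 of 7 libraries (adjusted p = 0.0504 to 0.0613). In the list of goblet, mucin and type 2 genes 4 of 8 tested passed above 0 (1.04% of all genes did) and the median was 0.97. Only 2 passed without naive_untreated replicate 1 or 2, naive_GEMy replicate 1 or 4, tumor_untreated replicate 2 or 3, or tumor_GEMy replicate 4. The list has 22 members, of which 20 were in the table and only these 8 were tested. Il4, Il5 and Il13 were under the minimum and not tested. Muc5ac, Agr2, Spdef, Retnlb, Chil4, Itln1 and Fcgbp of the same list were not tested either.

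**Figure D5:**
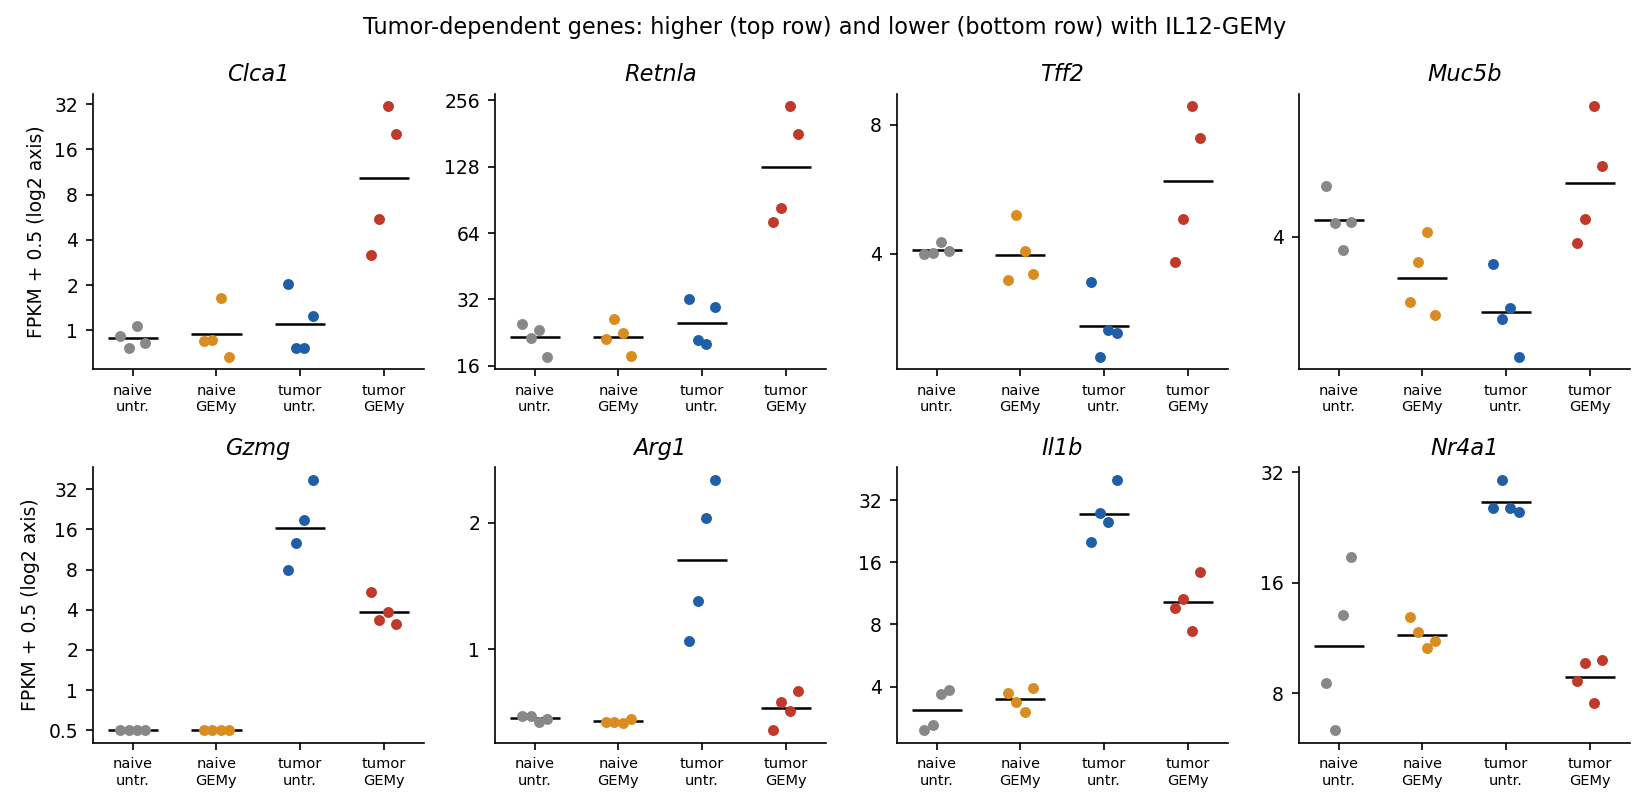
FPKM + 0.5 on a log2 axis in each of the 4 libraries per group (points), with the mean on that scale (bar), for 4 tumor-dependent higher genes (top) and 4 lower ones (bottom). Retnla and Clca1 are highest in tumor_GEMy, while Il1b and Gzmg are highest in tumor_untreated.

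Most of this class were called lower with the tumor alone. Of the 38 genes, 30 fell with the tumor alone (27.2% of all genes tested did). Low tumor_untreated values both favour entry to the class and count as a fall with the tumor, so this count is partly built in. Between tumor_GEMy and naive_GEMy 29 of the 38 were not called, where 13.2% of all genes were called. Muc1, a membrane mucin gene of epithelium, went from 108 ± 8.15 to 75.1 ± 3.55 FPKM with the tumor and stood at 95.9 ± 1.79 with both and 97.4 ± 4.91 with the cells alone (interaction 0.50, SE 0.094, adjusted p = 0.00544). Chad, a matrix protein gene, had the same form (0.78, adjusted p = 0.0092). The calls for Pigr, which carries antibodies across epithelium (0.74), the mucosal chemokine gene Cxcl17 (0.48) and the tight junction gene Cldn22 (0.97) were lost without any 1 of 5, 9 and 4 libraries (adjusted p = 0.0504 to 0.0634, 0.0502 to 0.0628 and 0.0519 to 0.0605). Rasd1, a glucocorticoid-induced GTPase gene, was different, since the tumor alone did not change it beyond the threshold (0.14, adjusted p = 0.497) and with both it stood 1.17 above naive_GEMy (interaction 1.03, adjusted p = 0.0126). All 38 lay above the sum of the separate changes on linear FPKM, and 13 kept a called interaction. The class held 95 genes without tumor_untreated replicate 1. It held 17 to 23 without naive_untreated replicate 1 (17), 2 (20) or 4 (23), naive_GEMy replicate 1 (20) or 4 (20), tumor_untreated replicate 3 (18), or tumor_GEMy replicate 2 (21) or 3 (22), and 26 to 39 without any other.

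The 46 mirror-image genes fell with IL12-GEMy in naive lungs and with the tumor alone. Between the 2 treated groups 41 of them were not called, and 5 were lower with both than with the cells alone (9.17% of all). Of all genes tested 13.2% were called there in either direction, so this is near the share of all genes. The class held 106 genes without tumor_untreated replicate 1, 200 with array weights, 71 under quantile normalization, 28 with median-of-ratios scaling and 27 on linear FPKM. It held 13 without naive_GEMy replicate 4, 16 without naive_untreated replicate 1 and 18 without naive_untreated replicate 2. Counts of 25 to 30 followed without naive_untreated replicate 4 (28), naive_GEMy replicate 1 (27) or 3 (28), tumor_untreated replicate 2 (29) or 3 (26), and tumor_GEMy replicate 2 (25) or 3 (30), and of 31 to 37 without any other library. Ppp1r3c (chr19:36731731-36736604), which directs glycogen synthesis, lay at 7.88, 6.8, 9.01 and 7.25 FPKM in naive_untreated, 5.84, 5.72, 5.08 and 5.72 in naive_GEMy, 3.51, 3.47, 3.36 and 2.64 in tumor_untreated and 3.92, 3.58, 4.27 and 4.69 in tumor_GEMy. Untreated naive lungs were highest, treated naive lungs lay below them, and both tumor-bearing groups were lower still, the treated ones all above the untreated ones (tumor_GEMy minus naive_GEMy -0.40, adjusted p = 0.0148; interaction 0.73, SE 0.14, adjusted p = 0.00544). The class was otherwise small in size, with a median interaction of 0.38. Interactions were 0.54 for Lratd1, 0.54 for the mesothelial gene Lrrn4, 0.51 for Upk3b, likewise of mesothelium, and 0.50 for Rsph4a of motile cilia. Those of the endothelial gene Esm1 (0.64) and of Igfbp5, which binds insulin-like growth factors (0.56), were lost without any 1 of 9 and 12 libraries (adjusted p = 0.0576 to 0.0792 and 0.0507 to 0.0877).

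Only Apol6, an interferon-induced apolipoprotein L gene (chr15:77045075-77057108), rose in both settings and more with the tumor. It lay at 0.187, 0.227, 0.216 and 0.173 FPKM in naive_untreated, 0.592, 0.48, 0.733 and 0.435 in naive_GEMy, 0.216, 0.194, 0.262 and 0.192 in tumor_untreated and 1.19, 1.4, 1.27 and 1.11 in tumor_GEMy. The untreated groups overlapped, and each treated group stood above them, without overlap between the treated groups. The changes with IL12-GEMy were 0.59 and 1.28, the interaction was 0.69 (SE 0.10, adjusted p = 0.00213), and the level was 2.16 times the sum of the separate changes in FPKM. Il10, an anti-inflammatory cytokine gene, also had an estimate above 0, at lower levels. It went from 0.0101 ± 0.00363 to 0.297 ± 0.0809 FPKM and from 0.0714 ± 0.0198 to 0.601 ± 0.12. As a ratio of mean FPKM its rise was larger in naive lungs, unlike that of Apol6, and values this low are pulled toward 0 by the added 0.5. Il10 met the minimum for testing only through the 4 tumor_GEMy lungs, where it was highest. It did not pass (0.30, 95% interval 0.082 to 0.52, adjusted p = 0.105), although it did under quantile normalization (0.66, adjusted p = 0.00285) and with array weights (0.37, adjusted p = 0.00758), and on recovered reads its estimate was -1.42. The 4 genes with a larger rise in naive lungs and no call for the tumor alone, Sec61g, U2af1, Grtp1 and Gramd4, had interactions of -0.39, -0.35, -0.28 and -0.28 and lost their calls without any 1 of 12 to 14 libraries (adjusted p = 0.0505 to 0.105).

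For many genes that rose with IL12-GEMy no difference between the settings was called. Of 250 genes called with the cells in both naive and tumor-bearing lungs, 202 were higher in both. For 141 of these no interaction was called. It was called below 0 in 60 (5.22% of all genes) and above 0 in 1 (1.04% of all). Saturated genes without a called rise in tumor-bearing lungs cannot be among the 202, so these counts are partly built in. Proliferation genes are an example: 13 of 16 tested rose in naive lungs (5.6% of all genes) by a median of 0.42 and 11 in tumor-bearing lungs (3% of all) by a median of 0.40. None of the 16 had a called interaction (1 at an unadjusted p under 0.05, none by voom), which is near the share of all genes (6.26% called). The median over these genes was -0.015 (0.060 under quantile normalization and 0.14 on linear FPKM). Without tumor_untreated replicate 1, 2 of them passed below 0, and without replicate 3, 1 passed above. Structural lung cells gave few calls, with 1 of 13 airway genes above 0 (1.04% of all genes were). This was Bpifb1 (0.99, adjusted p = 0.0422), whose call was lost without any 1 of 11 libraries (adjusted p = 0.0567 to 0.0939). Alveolar (median 0.33) and fibroblast genes (0.20) gave none, with 6 of 18 and 3 of 18 at an unadjusted p under 0.05 and none by voom. Of all genes 6.26% were called. Without tumor_untreated replicate 1, 5 alveolar genes, 4 airway genes and 1 fibroblast gene passed above 0, and without tumor_GEMy replicate 4 the last did so too.

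Among the 108 called genes that fell in none of the classes were Cebpb, a transcription factor of myeloid cell production under stress (-1.31, adjusted p = 0.0419), and Havcr2, which encodes the checkpoint receptor TIM-3 (-0.77, adjusted p = 0.0375). Sdc1, a surface proteoglycan of plasma cells and epithelium, was above 0 (0.35, adjusted p = 0.0405). All 3 changed their call when single libraries were left out. The guanylate-binding protein gene Gbp10 was saturated on the log2 scale (-1.34, adjusted p = 0.045), yet its difference on linear FPKM over the gene mean was 0.29, the opposite sign. Its call was lost without any 1 of 15 libraries (adjusted p = 0.0555 to 0.103), with a pseudocount of 1, with no minimum, with median-of-ratios scaling and under quantile normalization.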

How the data were processed

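Bulk RNA sequencing of lungs gave 1 table of FPKM values, deposited by the authors and made with STAR 2.7.3a, Partek and mm10, per the submitters' processing notes. How reads were assigned to genes is not given in the sources used here. In the deposited FPKM every column times gene span, introns included, sums to 1000000, so genes with long introns have low values. Reads were recovered from the smallest steps, with 86.7 to 88.4% of values under 1000 reads whole within 0.02, so these reads served only an alternative fit.

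Genes at 0.5 FPKM or more in at least 4 of 16 libraries were tested on log2(FPKM + 0.5) with limma 3.58.1 in R 4.3.3, 4 group means, trend and robust moderation, Benjamini-Hochberg adjustment over all 10284 genes, threshold 0.05. Fold changes of low genes are understated by the added 0.5. Python 3.11.15, pandas 2.3.3 and matplotlib 3.10.9 did the rest. On simulated data the fit called 67.7% of 99 planted 1.5-fold interactions and 94% of 100 planted 2-fold ones, with 5 false calls among 10229 genes. The simulation drew each gene independently with the same spread in all groups. It therefore cannot show errors from unequal spread or from shifts of whole libraries. Coordinates are mm10.

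Members, classes and gene lists were chosen with earlier results of these data known. Named genes were the 8 largest interactions each way, the 5 largest of each class, the 2 largest called members of each list and a fixed set, and predicted gene models were left out of ranked picks. Of 89, 19 were added after their values were seen. Alternatives were other pseudocounts, minimums, scalings, weights, a hemoglobin covariate, linear FPKM, voom, the replicate block and leaving out each lung library. The authors' FPKM of the injected cells, 1 library with no replicate, is given as a value only. 1 named gene is not reported here.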

Additional observations from a re-analysis of the deposited data

Results flagged for a closer look

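In groups of 4 libraries, 1 library lay far from the other 3 in 24 of 349 groups of named genes, its gap to the nearest being past Dixon's limit for 4 values. Chance alone puts about 1 in 20 groups past it. The FPKM in tumor_GEMy replicate 4 was 3.17 for Atf3, 6.61 for Cebpb, 66.7 for Irf1 and 2.63 for Rasd1. The FPKM in tumor_GEMy replicate 1 was 7.56 for Ccl17, 0.107 for Il12rb2 and 1046 for S100a8. The FPKM in tumor_untreated replicate 1 was 4.00 for Cd300a, 0.624 for Gramd4, 8.16 for Gzmb, 29.1 for S100a4 and 2.39 for Treml4. The FPKM in tumor_GEMy replicate 3 was 17.1 for Chad. The FPKM in naive_GEMy replicate 2 was 3.96 for Cxcl9. The FPKM in naive_GEMy replicate 4 was 9.21 for Gbp10. The FPKM in naive_untreated replicate 4 was 1.67 for Gbp4. The FPKM in naive_untreated replicate 2 was 0.0113 for Gzme and 12.1 for H2-DMb1. The FPKM in tumor_untreated replicate 3 was 120.1 for H2-Ab1. The FPKM in tumor_untreated replicate 2 was 30.1 for Nr4a1. The FPKM in naive_untreated replicate 1 was 1.86 for Plac8. The FPKM in naive_GEMy replicate 3 was 5.08 for Ppp1r3c and 2.79 for Rsph4a. The FPKM in tumor_untreated replicate 4 was 2.64 for Ppp1r3c.

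The limma interaction had an adjusted p under 0.05 in 78 of 87 named genes tested, against 6.26% of all genes. Many of the named genes were picked because this call was made, so the count follows from the choice. Interactions above 0, on the log2 scale, were 3.13 for Clca1, 2.33 for Retnla, 1.16 for Tff2, 1.16 for Muc5b, 1.03 for Rasd1, 0.99 for Bpifb1 and 0.97 for Cldn22. Next came 0.78 for Chad, 0.74 for Pigr, 0.73 for Ppp1r3c, 0.69 for Apol6, 0.64 for Esm1, 0.56 for Igfbp5 and 0.54 for Lrrn4. Smaller ones were 0.54 for Lratd1, 0.51 for Upk3b, 0.50 for Muc1, 0.50 for Rsph4a, 0.48 for Cxcl17 and 0.35 for Sdc1. Interactions below 0 were -3.49 for Cxcl10, -3.18 for Cxcl9, -2.49 for Gzmb, -2.41 for Serpina3f, -2.29 for Tgtp1, -2.09 for Gbp4 and -2.09 for Gzmg. Then followed -2.05 for Igtp, -2.03 for Wfdc17, -1.98 for Ccl4, -1.98 for Gzmd, -1.98 for Zbp1, -1.97 for Plac8 and -1.96 for Gzmf. Close to these were -1.87 for Ms4a6c, -1.86 for Treml4, -1.81 for Gbp2, -1.81 for Gzmc, -1.78 for Ccl3, -1.77 for Cd274 and -1.74 for Ly6c2. Further values were -1.69 for Nr4a1, -1.67 for Fcgr4, -1.63 for S100a4, -1.63 for Gzme, -1.62 for Cd300a, -1.6 for Il1b and -1.56 for Prf1. In the middle of the range were -1.42 for Rsad2, -1.41 for Fcer1g, -1.41 for Gzma, -1.41 for Tap1, -1.36 for Pirb, -1.34 for Gbp10 and -1.34 for Tyrobp. Lower in size were -1.31 for Cebpb, -1.29 for Clec4e, -1.17 for H2-Q7, -1.15 for Atf3, -1.15 for Arg1, -1.13 for Csf3r and -1.03 for Trem1. Others were -0.98 for Sele, -0.91 for B2m, -0.85 for Ebi3, -0.85 for Irf1, -0.80 for Il18rap, -0.77 for Ccl17 and -0.77 for Havcr2. Still smaller were -0.70 for Ciart, -0.69 for Ifi30, -0.65 for H2-K1, -0.56 for H2-DMb1, -0.39 for Sec61g, -0.35 for U2af1 and -0.28 for Grtp1. The smallest below 0 were -0.28 for Gramd4.

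The library of the injected cells was in no comparison. In 17 named genes its FPKM was above every lung library. These values were 47.6 for Ccl3, 24.6 for Ccl4, 14.9 for Cd300a, 18 for Clec4e, 5.67 for Ebi3 and 50.7 for Fcer1g. Others were 0.973 for Gramd4, 1.57 for Il12rb1, 3.33 for Il18rap, 105 for Ly6c2, 35.6 for Ms4a6c and 48 for Pirb. The rest were 50.8 for Plac8, 164 for S100a4, 1.93 for Sec61g, 66.9 for Tyrobp and 4.26 for U2af1.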

How the results depend on the processing

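Of 87 named genes tested, many of them picked for their call, 78 had a called interaction and 57 of these kept the call without each single library. Without one library, the interaction was called above 0 in 47 to 338 genes and below 0 in 331 to 918, with 121 to 344 saturated genes, 17 to 95 tumor-dependent higher and 136 to 427 tumor-dependent lower genes. Array weights, which weigh down tumor_untreated replicates 4 and 1, gave 484 above and 1397 below 0, with 447, 203 and 797 in those classes. Quantile normalization gave 223 above 0 and 65 tumor-dependent higher genes. Linear FPKM over the gene mean gave 40 above, 158 below, 13 saturated, 10 tumor-dependent higher and 122 lower. A fold of at least 2 left 5, 147, 84, 5 and 56. Weights by group, chosen after seeing the data, gave 23 tumor-dependent higher genes. The cause of these moves was not tested.

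Signs changed for Gbp10 on linear values (0.29), Ido1 on linear values (0.15) and Il10 by voom (-1.42). Ifng turned with a pseudocount of 1 (0.064), quantile normalization (0.27), array weights (0.23), linear values (0.57) and without tumor_untreated replicate 4 (0.12), and ran from -0.28 (without replicate 1 of that group) to that value when single libraries were left out. Il12rb1 turned with a pseudocount of 1 (0.021), quantile normalization (0.39), linear values (0.21) and without naive_GEMy replicate 4 (0.044), tumor_untreated replicate 3 (0.014) or tumor_GEMy replicate 4 (0.027), and was lowest without tumor_untreated replicate 1 (-0.085). Of these genes only Gbp10 had a called interaction as reported.

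With the replicate number as a block, 157 genes were above and 642 below 0, with 258 saturated, 49 tumor-dependent higher and 293 lower genes. The labels do not say whether the number marks a batch, and the values did not settle it: across 24 same-numbered pairs the correlation of deviations ran from -0.31 to 0.59 (median 0.12, against -0.05 for other pairs), and 7 of 16 libraries correlated best with their own number. The depth of the recovered reads leaves genes under the minimum, Il12rb2 and Nos2 among the named, untested.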
